A study of Mus musculus with 12 samples.

Results

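The 10 genes described here make prostaglandins, thromboxane and leukotrienes, the lipid mediators formed from arachidonic acid: Ptgs1, Ptgs2, Ptges, Ptges2, Pla2g4a, Pla2g5, Alox5, Alox5ap, Ltc4s and Tbxas1. The rule takes them by name and uses no measured value, but the list was drawn up with earlier results of these data known. All 10 were found in a table of 27487 genes, and 8 of them passed the filter on low counts and were tested. Alox5 and Ltc4s did not pass, so counts of calls below cover 8 genes and not all 10.

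Polyadenylated RNA was sequenced from BV2, a mouse cell line derived from microglia, the macrophages that live in nervous tissue. There were 3 groups of 4 libraries. In CTR the cells grew alone, in Neu they grew with primary mouse neutrophils, and in Neu+NETS they grew with such neutrophils after a stimulus with PMA (phorbol 12-myristate 13-acetate), which makes neutrophils cast out webs of chromatin and granule proteins (neutrophil extracellular traps, NETs). The study asked how neutrophils, and their traps in particular, alter gene expression in microglia. The labels name retina as the tissue and BV2 as the cell line, and none of the 3 groups had PMA without neutrophils. The culture time, the ratio of cells and the removal of neutrophils before lysis are points not given in the sources used here. For bulk RNA, fewer cells of a type and less RNA per cell cannot be told apart.

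Phospholipases A2 cut arachidonic acid from membrane lipids. The cyclooxygenases, encoded by Ptgs1 (COX-1, present in most resting cells) and Ptgs2 (COX-2, an early gene switched on by inflammatory signals), turn it into prostaglandin H2, from which prostaglandin E synthases and thromboxane synthase make the final mediators. In the other branch, 5-lipoxygenase (Alox5) with its partner protein FLAP (Alox5ap) makes leukotriene A4, which leukotriene C4 synthase (Ltc4s) joins to glutathione. Microglia are known as a source of prostaglandin E2 in inflamed nervous tissue.

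With neutrophils, the inducible genes of the prostaglandin E2 route rose, COX-2 above all: Ptgs2 was 10.2-fold higher in Neu than in CTR and Ptges 1.86-fold higher. The rise was not confined to them, as Ptgs1, Alox5ap and Pla2g5 were 1.40-, 1.40- and 1.51-fold higher, while Ptges2 and Pla2g4a were lower. With PMA-stimulated neutrophils Ptgs2 was not called different from cells alone, Ptgs1, Ptges, Alox5ap and Tbxas1 were lower than in cells alone, and the secreted phospholipase gene Pla2g5 was 3.40-fold higher. Levels are FPKM (fragments divided by transcript length and by the depth of the library) with the SD over the 4 libraries of a group. Fold changes come from edgeR's quasi-likelihood fit of the counts, with its own scaling between libraries, so they differ a little from ratios of FPKM. A gene was called at a Benjamini-Hochberg adjusted p under 0.05 over all 16387 genes tested.

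The promoters of the cyclooxygenase and prostaglandin E synthase genes are shown because the inducible and the constitutive enzyme of each pair moved differently. The sequences are from RefSeq on build GRCm38.p6, where 9 of the 10 genes were matched, and run from 250 bases before the annotated start to 30 bases after it, on the strand of the gene, 5′ to 3′. Capitals mark the matches to the motifs named below. Ptgs2 lies at chr1:150099781-150100060 on the plus strand, Ptgs1 at chr2:36230176-36230455 on the plus strand, Ptges at chr2:30903268-30903547 on the minus strand and Ptges2 at chr2:32395640-32395919 on the plus strand.
Ptgs2: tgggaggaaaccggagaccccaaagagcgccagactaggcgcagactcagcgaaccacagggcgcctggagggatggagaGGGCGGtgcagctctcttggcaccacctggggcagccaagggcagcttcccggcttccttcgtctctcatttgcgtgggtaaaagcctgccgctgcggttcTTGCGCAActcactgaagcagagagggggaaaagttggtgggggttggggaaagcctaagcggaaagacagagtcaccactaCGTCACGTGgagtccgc
Ptgs1: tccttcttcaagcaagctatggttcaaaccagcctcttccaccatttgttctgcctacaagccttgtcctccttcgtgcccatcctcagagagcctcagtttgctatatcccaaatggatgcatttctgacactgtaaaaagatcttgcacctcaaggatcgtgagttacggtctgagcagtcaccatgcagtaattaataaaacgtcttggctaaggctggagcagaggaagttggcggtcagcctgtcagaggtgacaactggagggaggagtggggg
Ptges: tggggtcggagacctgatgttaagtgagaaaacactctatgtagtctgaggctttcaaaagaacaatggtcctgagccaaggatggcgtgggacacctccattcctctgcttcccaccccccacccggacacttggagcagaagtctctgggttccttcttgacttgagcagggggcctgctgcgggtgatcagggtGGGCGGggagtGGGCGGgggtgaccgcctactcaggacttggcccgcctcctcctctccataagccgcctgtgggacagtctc
Ptges2: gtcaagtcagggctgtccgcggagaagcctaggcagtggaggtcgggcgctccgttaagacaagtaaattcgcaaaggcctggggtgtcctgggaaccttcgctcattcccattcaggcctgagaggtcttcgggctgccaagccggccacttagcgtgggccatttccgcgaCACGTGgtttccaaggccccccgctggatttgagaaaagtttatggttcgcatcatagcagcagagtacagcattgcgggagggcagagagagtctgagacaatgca

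Both strands of each window were searched for 7 motifs: C/EBP (TTGCGCAA), the CRE half-site (TGACG), the E-box (CACGTG), AP-1 (TGANTCA), the GC box (GGGCGG), the TATA box (TATAAA) and kappaB by its consensus. The Ptgs2 window held a C/EBP match at positions -69 to -62 counted from the annotated start, a motif found in 0.18% of all 32851 RefSeq promoter windows. It also held a CRE half-site at 13 to 17, read there as CGTCA and found in 19.9% of windows, which overlapped an E-box at 16 to 21 (6.79% of windows). A GC box (34.7% of windows) lay at -170 to -165 of Ptgs2, and the Ptges window held 2 GC boxes, at -53 to -48 and -42 to -37. The Ptges2 window held an E-box at -77 to -72 and the Ptgs1 window held no match. AP-1, TATA box and kappaB, found in 7.46%, 13.1% and 7.94% of all windows, had no match in these 4. A match is a string of letters, not a bound site, and a window without one says nothing about a factor.

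The libraries held 53512190 to 68316549 estimated counts. Low counts piled up at multiples of 4, 33.0% of those from 2 to 41 against 25% for an even spread, so about 4 units may stand for 1 fragment, and the fragment numbers below are approximate and rest on that reading. Over all genes, the share called higher was 26.1% and the share called lower 27.9% for Neu against CTR, 21.6% and 23.7% for Neu+NETS against CTR, and 29.4% and 33.1% for Neu+NETS against Neu. With that much movement a call alone sets a gene apart little, and sizes are given throughout. The labels do not say that the 4 libraries of a group came from separate cultures, so p-values measure only the spread between these libraries.

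**Figure D1:**
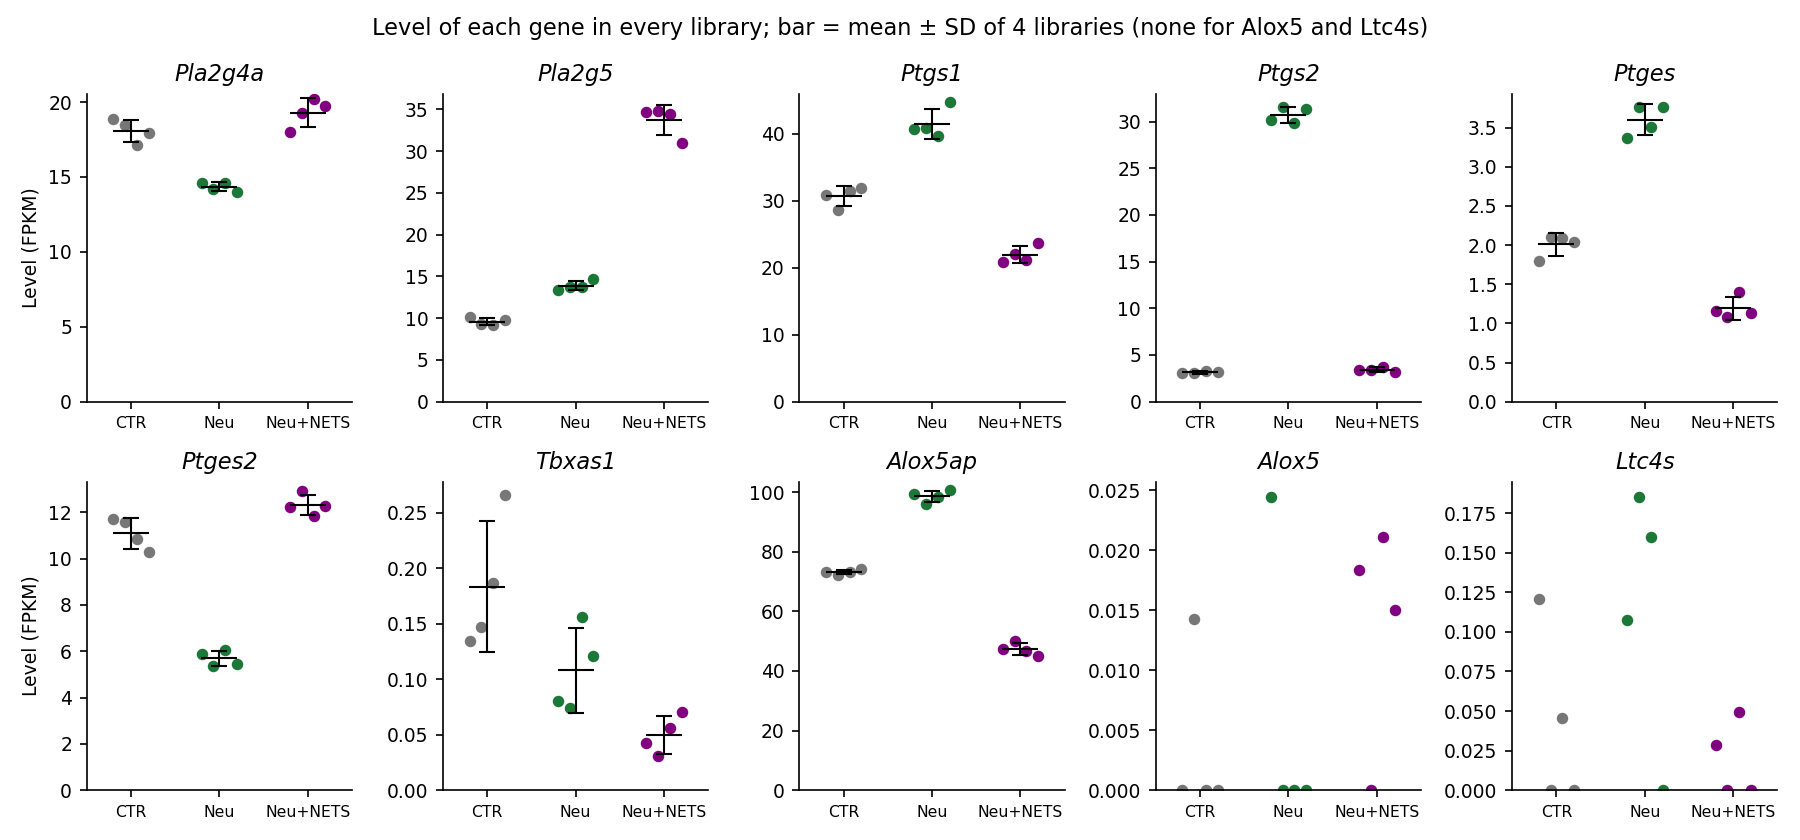
Level of each of the 10 genes (y axis, FPKM, from 0) in every library of the CTR, Neu and Neu+NETS groups, with the mean ± SD of 4 libraries as black bars (none for Alox5 and Ltc4s). Ptgs2 stood near 30.7 FPKM in Neu and near 3 in the other groups, while Pla2g5 was highest in Neu+NETS, and Alox5 and Ltc4s stayed under 0.2 FPKM.

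The phospholipases moved in opposite ways in Neu against CTR, and both were higher in Neu+NETS than in Neu. Pla2g4a encodes the cytosolic, calcium-dependent phospholipase A2 alpha, the enzyme that feeds arachidonic acid to the cyclooxygenases in activated cells (ENSMUSG00000056220, GRCm39 chr1:149705369-149837041, minus strand). Its levels in the CTR libraries were 18.8, 18.5, 17.1 and 17.9 FPKM, in Neu 14.6, 14.2, 14.6 and 14.0, and in Neu+NETS 18.0, 19.3, 20.2 and 19.7. Every Neu library lay under every library of the other groups, which overlapped each other. Pla2g4a fell by 0.28 ± 0.04 (SE) on the log2 scale in Neu against CTR (adjusted p = 1.65e-05, edgeR) and was 1.25-fold higher in Neu+NETS than in Neu (adjusted p = 2.22e-06). In Neu+NETS against CTR it differed by 0.04 (95% interval -0.04 to 0.13, adjusted p = 0.415), which was not called.

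Pla2g5 encodes the secreted group V phospholipase A2, found in macrophages (ENSMUSG00000041193, GRCm39 chr4:138526555-138590793, minus strand). Its levels were 10.2, 9.26, 9.15 and 9.79 FPKM in CTR, 13.4, 13.7, 13.8 and 14.7 in Neu, and 34.7, 34.8, 34.5 and 31.0 in Neu+NETS. The 3 groups did not overlap, and the order CTR, Neu, Neu+NETS held in all libraries. The rise in Neu was 1.51-fold (log2 0.59 ± 0.05, adjusted p = 1.87e-08) and that in Neu+NETS 3.40-fold (log2 1.76 ± 0.05, adjusted p = 3.87e-14), both against CTR. Between the co-cultures Pla2g5 was 2.25-fold higher in Neu+NETS (adjusted p = 1.15e-12). By size of log2 change it ranked 160 of 16387 genes from the top in Neu+NETS against CTR, the highest rank of the group in that comparison. A gene for another secreted phospholipase, Pla2g2a, overlaps it on the opposite strand and read 0.0136 FPKM in CTR, 0.00881 in Neu and 0.121 in Neu+NETS, far under Pla2g5 in each.

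As a share of the summed FPKM of both phospholipase genes, Pla2g5 made up 34.7% ± 0.866 in CTR, 49.2% ± 1.44 in Neu and 63.6% ± 2.02 in Neu+NETS (SD, n = 4). The secreted enzyme thus went from the lesser to the greater transcript of the pair. Shares are given as a description with no test of their own.

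Among the cyclooxygenases, Ptgs2 made the largest change of the 10 genes (ENSMUSG00000032487, GRCm39 chr1:149975782-149983978, plus strand). It read 3.04, 3.02, 3.31 and 3.19 FPKM in CTR, 30.1, 31.6, 29.8 and 31.4 in Neu, and 3.44, 3.42, 3.76 and 3.16 in Neu+NETS. Neu stood far above both other groups, and CTR and Neu+NETS overlapped. In Neu against CTR the log2 change was 3.35 ± 0.05 (adjusted p = 2.58e-17), rank 108 of 16387 from the top, and in Neu+NETS against Neu it was -3.26 ± 0.05, or 9.58-fold lower (adjusted p = 1.15e-17). Each CTR library held 209 to 234 fragments of Ptgs2 and each Neu library 2390 to 2574. Against CTR, Neu+NETS differed by 0.09 on the log2 scale (95% interval -0.02 to 0.20, adjusted p = 0.199), and the gene was called there with adjusted p = 0.0407 when Neu+NETS replicate 4 was left out and 0.048 in a limma fit of log2(FPKM + 0.1).

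Ptgs1, the constitutive cyclooxygenase (ENSMUSG00000047250, GRCm39 chr2:36120438-36142284, plus strand), was the more abundant of the pair in every library. It read 30.9, 28.6, 31.5 and 32.0 FPKM in CTR, 40.7, 40.8, 39.7 and 44.8 in Neu, and 20.9, 22.0, 21.2 and 23.7 in Neu+NETS. The groups did not overlap, with CTR in the middle. Ptgs1 was 1.40-fold higher in Neu than in CTR (log2 0.49 ± 0.04, adjusted p = 2.89e-08), 1.45-fold lower in Neu+NETS than in CTR (log2 -0.54 ± 0.04, adjusted p = 2.10e-08) and 2.03-fold lower in Neu+NETS than in Neu (adjusted p = 1.37e-12).

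The summed level of both cyclooxygenase genes was 33.9 ± 1.61 FPKM in CTR, 72.2 ± 2.88 in Neu and 25.4 ± 1.08 in Neu+NETS (SD, n = 4). Ptgs2 held 9.27% ± 0.302 of that sum in CTR, 42.6% ± 1.03 in Neu and 13.6% ± 1.40 in Neu+NETS. COX-2 transcripts were therefore close to those of COX-1 only with unstimulated neutrophils. The share in Neu+NETS, 11.8% to 15.1%, lay above the CTR range of 8.96% to 9.57% although Ptgs2 itself was not called, since Ptgs1 was lower there.

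**Figure D2:**
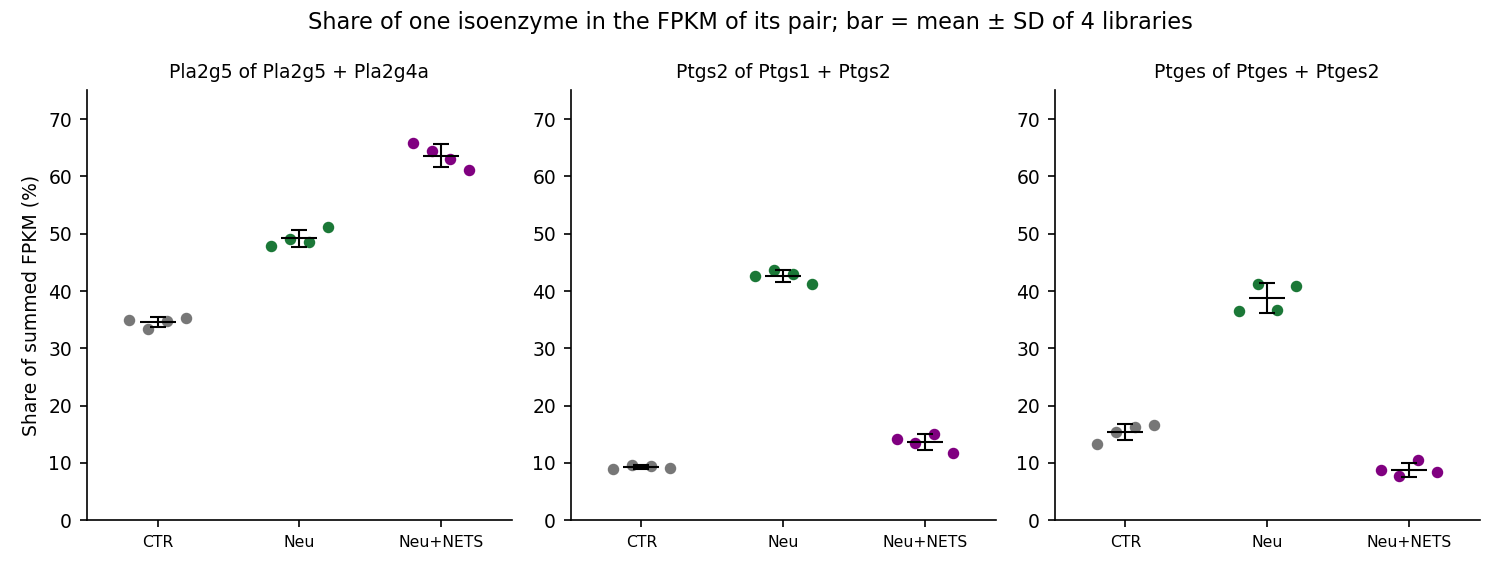
Share (y axis, percent of the summed FPKM of the pair) of Pla2g5 against Pla2g4a, Ptgs2 against Ptgs1 and Ptges against Ptges2, 1 point a library, black bars mean ± SD of 4 libraries. Pla2g5 rose from 34.7% in CTR to 63.6% in Neu+NETS, while the Ptgs2 and Ptges shares were highest in Neu, at 42.6% and 38.8%.

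The prostaglandin E synthases moved against each other in Neu against CTR and in Neu+NETS against Neu. Ptges encodes the inducible microsomal synthase that works together with COX-2 (ENSMUSG00000050737, GRCm39 chr2:30779483-30793309, minus strand). It read 1.79, 2.11, 2.09 and 2.04 FPKM in CTR, 3.37, 3.77, 3.50 and 3.76 in Neu, and 1.16, 1.08, 1.40 and 1.13 in Neu+NETS. Its groups did not overlap and had the same order as those of Ptgs1. The log2 change was 0.89 ± 0.10 in Neu against CTR (1.86-fold, adjusted p = 5.57e-07), -0.80 ± 0.10 in Neu+NETS against CTR (1.74-fold lower, adjusted p = 4.54e-06) and -1.69 ± 0.10 in Neu+NETS against Neu (3.23-fold lower, adjusted p = 1.37e-10).

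Ptges2 encodes a second, constitutive microsomal synthase (ENSMUSG00000026820, GRCm39 chr2:32285908-32295784, plus strand). Its levels were 11.7, 11.6, 10.8 and 10.3 FPKM in CTR, 5.88, 5.36, 6.05 and 5.46 in Neu, and 12.2, 12.9, 11.9 and 12.3 in Neu+NETS. Neu was low in all 4 libraries, and the lowest Neu+NETS library was just above the highest CTR library. Ptges2 was 1.88-fold lower in Neu than in CTR (log2 -0.91 ± 0.05, adjusted p = 2.90e-10) and 2.01-fold higher in Neu+NETS than in Neu (adjusted p = 3.93e-11). In Neu+NETS against CTR the difference of 0.10 (95% interval -0.01 to 0.21, adjusted p = 0.14) was not called by edgeR. A limma fit of log2(FPKM + 1) called it, at 0.14 and an adjusted p of 0.022.

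Ptges made up 15.4% ± 1.46 of the FPKM of these 2 synthase genes in CTR, 38.8% ± 2.59 in Neu and 8.83% ± 1.21 in Neu+NETS (SD, n = 4). The inducible synthase was thus the lesser transcript in every group, least so with unstimulated neutrophils.

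Tbxas1, thromboxane A synthase, was scarce (ENSMUSG00000029925, GRCm39 chr6:38852338-39061519, plus strand). It read 0.134, 0.147, 0.187 and 0.266 FPKM in CTR, 0.0807, 0.0740, 0.156 and 0.121 in Neu, and 0.0428, 0.0310, 0.0562 and 0.0707 in Neu+NETS, from 4.75 to 35.5 fragments a library. CTR and Neu overlapped, and every Neu+NETS library was under every library of the other groups. Tbxas1 was 3.72-fold lower in Neu+NETS than in CTR (log2 -1.90 ± 0.33, adjusted p = 1.46e-04) and 2.29-fold lower than in Neu (adjusted p = 0.00434). For Neu against CTR the log2 difference was -0.70 ± 0.31 (95% interval -1.36 to -0.03, adjusted p = 0.072), which was not called; without CTR replicate 1 the adjusted p was 0.0488, and without Neu replicate 3 it was 0.0284. The locus of the kinase gene Hipk2 overlaps that of Tbxas1 by 762 bases on the opposite strand at 3.18, 3.68 and 2.89 FPKM in the 3 groups, and as the strand setting of the counting is not given, reads in that stretch cannot be assigned to 1 gene.

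Of the 3 leukotriene genes only that of the partner protein was well expressed. Alox5ap (FLAP), which presents arachidonic acid to 5-lipoxygenase, was the most abundant of the 10 transcripts in every group (ENSMUSG00000060063, GRCm39 chr5:149201577-149224963, plus strand). Its levels were 73.3, 72.3, 73.0 and 74.2 FPKM in CTR, 99.2, 96.0, 98.5 and 100.6 in Neu, and 47.3, 50.0, 46.7 and 45.0 in Neu+NETS. The groups did not overlap and again had CTR in the middle. Alox5ap was 1.40-fold higher in Neu than in CTR (log2 0.49 ± 0.03, adjusted p = 1.03e-09), 1.60-fold lower in Neu+NETS than in CTR (log2 -0.68 ± 0.03, adjusted p = 3.44e-11) and 2.24-fold lower in Neu+NETS than in Neu (adjusted p = 8.70e-15).

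Alox5, the 5-lipoxygenase itself (ENSMUSG00000025701, GRCm39 chr6:116387038-116438139, minus strand), was near 0 in all groups. Its counts as deposited were 0, 4, 0 and 0 in CTR, 7, 0, 0 and 0 in Neu, and 6, 0, 7 and 4 in Neu+NETS, at most 1.75 fragments in a library. A count of 0 still allows an expected count of up to about 3 fragments. For this gene 3 fragments correspond to 0.0362 to 0.0485 FPKM, so levels under that were not resolved. Ltc4s, leukotriene C4 synthase (ENSMUSG00000020377, GRCm39 chr11:50127288-50129443, minus strand), had counts of 9, 0, 3 and 0 in CTR, 9, 15, 12 and 0 in Neu, and 2, 0, 4 and 0 in Neu+NETS. Of these only Neu replicate 2, at 3.75 fragments, was above 3 fragments, and Neu replicate 3 was at that limit. Fitted without the filter, Ltc4s had adjusted p of 0.52, 0.651 and 0.222 and Alox5 of 0.84, 0.495 and 0.665 in Neu against CTR, Neu+NETS against CTR and Neu+NETS against Neu (edgeR), and no difference was detectable at this depth.

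**Figure D3:**
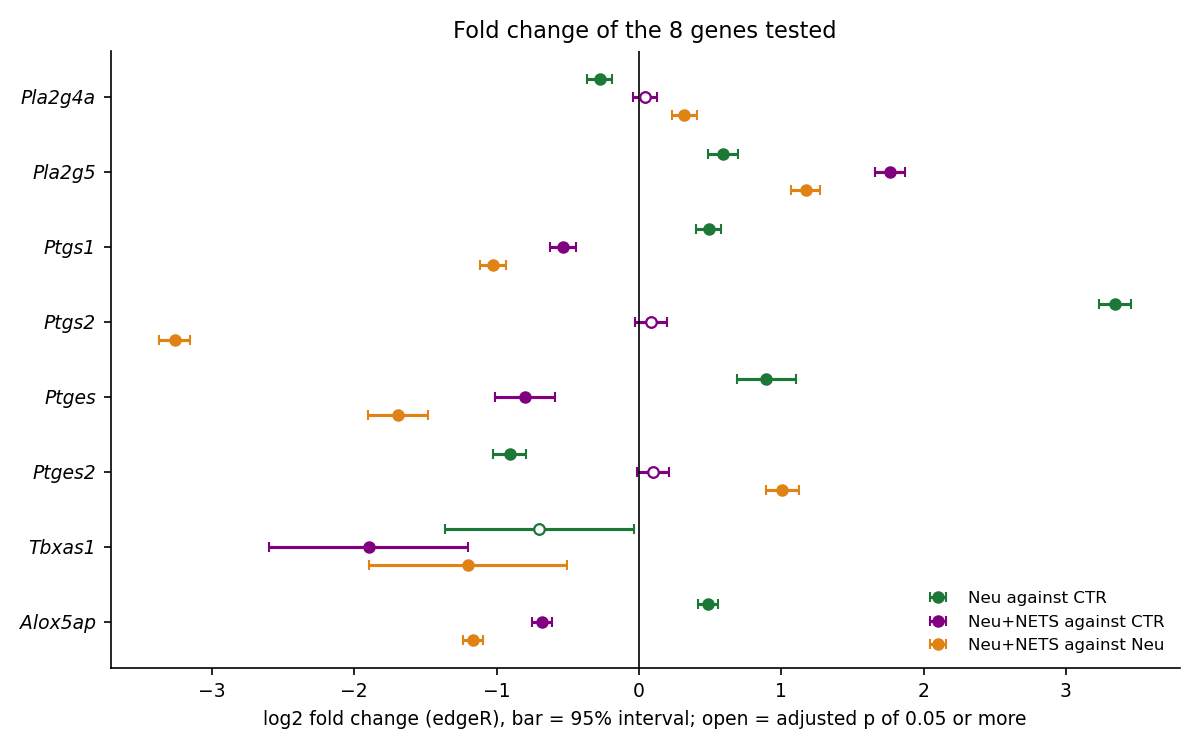
Log2 fold change (x axis, edgeR) of the 8 genes tested, with 95% intervals, for Neu against CTR (green), Neu+NETS against CTR (purple) and Neu+NETS against Neu (orange). Open symbols have an adjusted p of 0.05 or more, and Ptgs2 stands out at 3.35 and -3.26 while its Neu+NETS against CTR value is 0.09.

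Of the 8 genes tested, 5 were higher and 2 lower for Neu against CTR, where the background was 26.1% and 27.9% of all genes. The higher ones were Ptgs2, Ptges, Pla2g5, Ptgs1 and Alox5ap, and the lower ones Ptges2 and Pla2g4a. The median log2 change of the 8 was 0.49, against 0.02 over all genes tested. In Neu+NETS against CTR, 1 was higher (Pla2g5) and 4 were lower (Alox5ap, Ptgs1, Ptges and Tbxas1), with backgrounds of 21.6% and 23.7% and a median of -0.25 beside 0.00 over all genes. In Neu+NETS against Neu all 8 were called, 3 higher (Pla2g5, Ptges2 and Pla2g4a) and 5 lower, with backgrounds of 29.4% and 33.1% and a median of -1.09 beside -0.05. These comparisons share libraries and are not independent of each other.

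The order of levels within a group, compared per length in FPKM, shifted mainly through Ptgs2 and Pla2g5. In CTR it ran from Alox5ap at 73.2 through Ptgs1 at 30.7, Pla2g4a at 18.1, Ptges2 at 11.1, Pla2g5 at 9.59 and Ptgs2 at 3.14 to Ptges at 2.01 and Tbxas1 at 0.184. With neutrophils, Ptgs2 at 30.7 moved up to the third place, behind Alox5ap at 98.6 and Ptgs1 at 41.5, and the next pair, Pla2g4a at 14.4 and Pla2g5 at 13.9, overlapped between libraries. With PMA-stimulated neutrophils Pla2g5 at 33.7 stood second, behind Alox5ap at 47.3 and ahead of Ptgs1 at 21.9 and Pla2g4a at 19.3.

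The other genes of the pathway come from lists taken from textbook knowledge of the pathway. Over all genes tested, 26.1% were higher and 27.9% lower in Neu against CTR. The shares were 21.6% and 23.7% in Neu+NETS against CTR, and 29.4% and 33.1% in Neu+NETS against Neu. Counts of calls in these lists and in the marker lists below are set against those shares, and a count near them says nothing particular about a list. Of 24 other genes for phospholipases and arachidonate release, 13 were tested. In Neu against CTR 7 were higher and 3 lower, in Neu+NETS against CTR 3 and 4, and in Neu+NETS against Neu 2 and 6, with median log2 changes of 0.47, -0.11 and -0.32. The largest was Pld2, phospholipase D2, which cuts off phosphatidic acid and not arachidonate. It read 5.67 ± 0.173 FPKM in CTR, 12.5 ± 0.389 in Neu and 2.94 ± 0.130 in Neu+NETS, called in all 3 comparisons (log2 1.19, -0.99 and -2.19, adjusted p = 4.76e-13, 1.23e-11 and 1.69e-16). Faah, the hydrolase that frees arachidonic acid from anandamide, had the same order, at 3.92 ± 0.274, 7.94 ± 0.688 and 3.11 ± 0.161 FPKM.

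Among 10 other prostanoid synthases, 4 were tested. Ptges3 alone was called against CTR, lower in Neu and higher in Neu+NETS, and in Neu+NETS against Neu 1 was higher and 2 were lower. Ptges3, the cytosolic prostaglandin E synthase that is also the Hsp90 co-chaperone p23, read 53.6 ± 2.93 FPKM in CTR, 31.3 ± 1.73 in Neu and 65.8 ± 2.68 in Neu+NETS. It was lower in Neu (log2 -0.72, adjusted p = 1.47e-09) and higher in Neu+NETS (log2 0.25, adjusted p = 4.66e-04), a pattern like that of Ptges2. Hpgds, which makes prostaglandin D2, read 14.7 ± 0.333, 14.8 ± 0.448 and 14.2 ± 0.801 FPKM and was called only in Neu+NETS against Neu (log2 -0.16, adjusted p = 0.00236).

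In the leukotriene branch, 6 of 14 other lipoxygenase and leukotriene genes were tested. The calls were 3 higher in Neu against CTR, 4 lower in Neu+NETS against CTR and 5 lower in Neu+NETS against Neu, with medians of 0.19, -0.59 and -0.90. Mgst2, which can make leukotriene C4 outside blood cells, read 9.65 ± 0.362 FPKM in CTR, 12.9 ± 0.223 in Neu and 7.01 ± 0.791 in Neu+NETS. Cotl1, a protein that binds 5-lipoxygenase and actin, read 313.7 ± 4.17, 348.8 ± 19.6 and 181.5 ± 2.98 FPKM. Both had the order of Alox5ap. Lta4h, the hydrolase that makes leukotriene B4, was present at 11.0 ± 0.662, 11.9 ± 0.425 and 10.8 ± 0.356 FPKM.

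**Figure D4:**
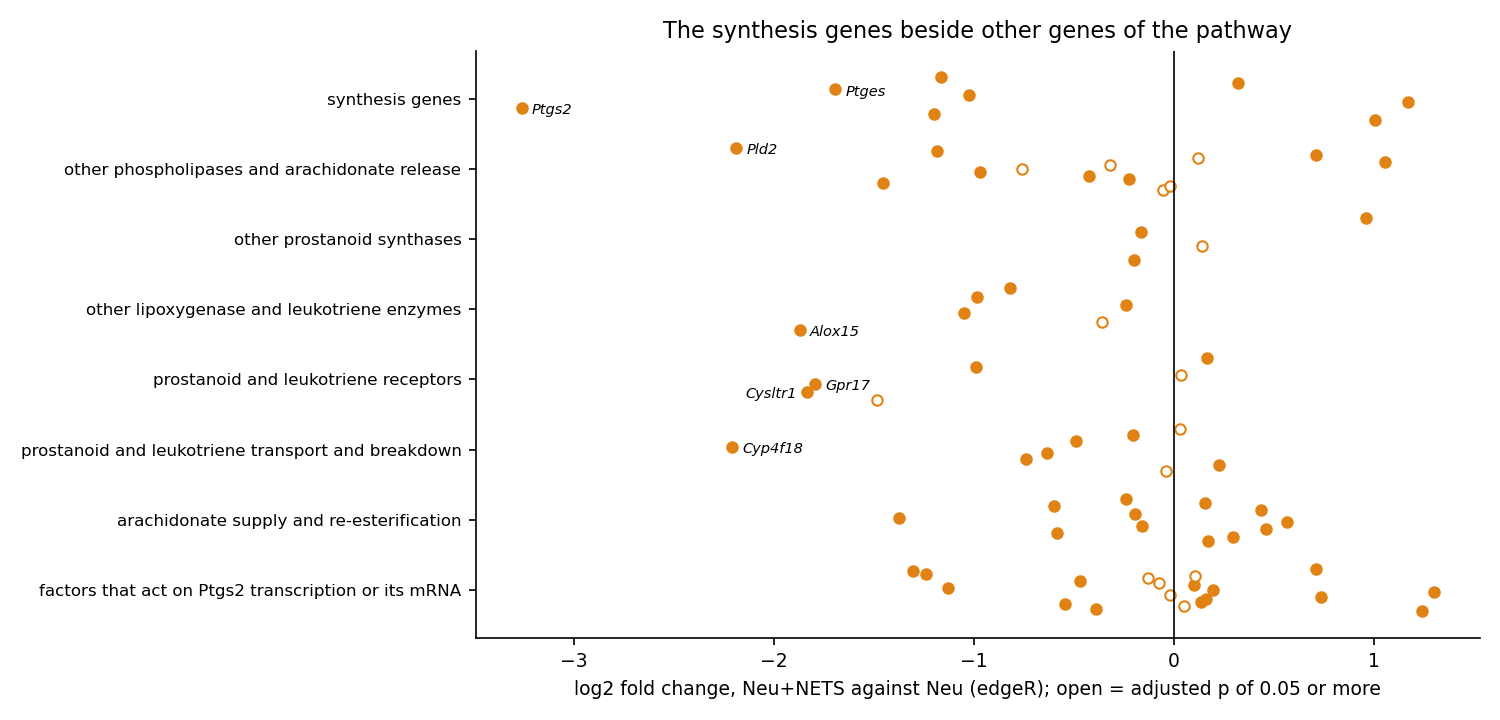
Log2 fold change of Neu+NETS against Neu (x axis, edgeR) for the 8 synthesis genes tested and for the tested genes of 7 other lists of the pathway, 1 point a gene, open where the adjusted p was 0.05 or more. Ptgs2, at -3.26, lies furthest left of all points, followed by Cyp4f18 at -2.21 and Pld2 at -2.19.

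Of 17 receptor genes, 6 were tested. Higher and lower calls were 3 and 1, 1 and 2, and 1 and 3 in Neu against CTR, Neu+NETS against CTR and Neu+NETS against Neu, with medians of 0.67, -0.23 and -1.24. Cysltr1, a receptor for cysteinyl leukotrienes, read 2.71 ± 0.210 FPKM in CTR, 4.78 ± 0.229 in Neu and 1.44 ± 0.225 in Neu+NETS (log2 0.88 and -0.96 against CTR, adjusted p = 6.48e-07 and 5.32e-07). Ptger4, the prostaglandin E2 receptor EP4, had the same order at 0.673 ± 0.130, 0.898 ± 0.0456 and 0.485 ± 0.0923 FPKM (log2 0.47 and -0.51, adjusted p = 0.0166 and 0.0137). Gpr17, a receptor related to those for cysteinyl leukotrienes, was scarce at 0.0697 ± 0.0189, 0.393 ± 0.0794 and 0.121 ± 0.0164 FPKM and 5.75-fold higher in Neu than in CTR (adjusted p = 3.16e-07). The prostacyclin receptor gene Ptgir was the most abundant of those named here, at 23.1 ± 0.861, 20.4 ± 0.676 and 24.6 ± 0.746 FPKM. The EP2 receptor gene Ptger2 was at 0.0185 FPKM or less as a group mean.

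Transport and breakdown genes numbered 15, of which 8 were tested, with 4 higher and 1 lower in Neu against CTR, 2 and 4 in Neu+NETS against CTR, and 1 and 5 in Neu+NETS against Neu. The medians were 0.11, -0.07 and -0.35. Cyp4f18, a cytochrome P450 that inactivates leukotriene B4 in mouse myeloid cells, read 4.79 ± 0.624 FPKM in CTR, 4.36 ± 0.443 in Neu and 1.01 ± 0.180 in Neu+NETS (log2 -2.29 against CTR, adjusted p = 8.07e-10). Cyp4f16, another member of that family, was higher in Neu, at 3.08 ± 0.150, 6.08 ± 0.0921 and 4.21 ± 0.381 FPKM (log2 1.03, adjusted p = 3.80e-09). Abcc4, an exporter of prostaglandin E2, was lower in Neu (10.9 ± 0.481 against 8.34 ± 0.266 FPKM, log2 -0.33, adjusted p = 1.61e-06). Hpgd, the enzyme that starts prostaglandin breakdown, was at 0 in CTR and Neu+NETS and at 0.00615 FPKM as a mean in Neu, and Slco2a1, a prostaglandin uptake carrier, was not analysed here.

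Genes that supply arachidonic acid to membranes or put it back numbered 15, of which 12 were tested. Higher and lower calls were 5 and 5, 4 and 5, and 6 and 6 in the same order of comparisons, and the medians were 0.01, -0.04 and 0.00, close to those of all genes. Mboat1, a lysophospholipid acyltransferase, read 12.0 ± 0.509, 6.04 ± 0.287 and 8.80 ± 0.494 FPKM (log2 -0.93 in Neu against CTR, adjusted p = 3.02e-10). Acsl4, the acyl-CoA synthetase that prefers arachidonic acid, was higher in Neu at 31.4 ± 0.906 FPKM against 23.7 ± 0.876 in CTR (log2 0.46, adjusted p = 5.80e-09). Lpcat2, an acyltransferase of inflammatory cells that also makes platelet-activating factor, was 15.0 ± 0.223 FPKM in CTR, 16.3 ± 0.533 in Neu and 6.76 ± 0.205 in Neu+NETS (log2 -1.20 against CTR, adjusted p = 3.74e-13).

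Ptgs2 transcription and mRNA decay are known to depend on C/EBP, CREB, AP-1 and NF-kappaB factors and on proteins that bind AU-rich elements. All 19 such factors listed were tested. In Neu against CTR 5 were higher and 12 lower, in Neu+NETS against CTR 5 and 11, and in Neu+NETS against Neu 8 and 6, with medians of -0.20, -0.16 and 0.05. The shares over all genes, higher and lower, were 26.1% and 27.9%, 21.6% and 23.7%, and 29.4% and 33.1%. Zfp36 (tristetraprolin), which binds AU-rich elements and speeds decay of Ptgs2 mRNA, had high levels in the same group as Ptgs2, at 5.47 ± 0.274 FPKM in CTR, 13.5 ± 0.231 in Neu and 6.16 ± 0.837 in Neu+NETS (log2 1.36 in Neu against CTR, adjusted p = 1.53e-10). Its relative Zfp36l2 went the other way, at 51.9 ± 1.02, 24.5 ± 1.13 and 43.2 ± 0.955 FPKM. The AP-1 subunits did not move together. Jun was highest in Neu, at 25.0 ± 0.497, 39.6 ± 2.88 and 19.5 ± 0.258 FPKM, Fos was lower than in CTR in both co-cultures, at 5.82 ± 0.624, 2.74 ± 0.348 and 2.90 ± 0.470, and Fosl1 was highest in Neu+NETS, at 1.84 ± 0.374, 3.62 ± 0.509 and 9.63 ± 2.86.

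Elavl1 (HuR), which stabilises Ptgs2 mRNA, read 9.33 ± 0.198 FPKM in CTR, 6.11 ± 0.156 in Neu and 10.9 ± 0.158 in Neu+NETS (log2 -0.56 in Neu against CTR, adjusted p = 1.28e-10), lowest in the group where Ptgs2 was high. Atf4, a CREB-family factor, had the same order at 79.7 ± 1.66, 51.5 ± 2.78 and 130.8 ± 2.88 FPKM (log2 1.24 in Neu+NETS against Neu, adjusted p = 6.49e-15). Cebpb, the C/EBP factor most tied to Ptgs2 in macrophages, was lower than in CTR in both co-cultures and lowest in Neu+NETS, at 115.7 ± 3.50, 91.3 ± 8.53 and 75.1 ± 3.49 FPKM. Nfkb1 had that order too, at 11.0 ± 0.317, 9.99 ± 0.497 and 7.77 ± 0.141 FPKM. Levels of mRNA do not measure the activity of these proteins.

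The genomic neighbours of Ptgs2 and Pla2g5 were read as well. Those named here, other than Pla2g4a, fall outside the rule for named genes and were chosen after their values were seen. Ptgs2os, an antisense noncoding RNA gene, starts 68 bases from the start of Ptgs2 and runs away from it. It read 0.105, 0.0458, 0.0388 and 0.0480 FPKM in CTR and 0.393, 0.346, 0.327 and 0.380 in Neu, a 5.89-fold rise (log2 2.56 ± 0.37, adjusted p = 1.67e-05, edgeR) from CTR counts of 11 to 29 units, where 12 units are 3 fragments. In Neu+NETS it read 0.0412, 0.0142, 0.0240 and 0.0419 FPKM, near or under the limit of 3 fragments. Pla2g4a, 138.7 kb from Ptgs2, was lower in Neu, as given above. Pla2g2e, a secreted phospholipase gene 14.5 kb from Pla2g5, read 5.76 FPKM in CTR, 8.88 in Neu and 4.86 in Neu+NETS, so it was not high where Pla2g5 was highest (log2 -0.97 in Neu+NETS against Neu, adjusted p = 1.36e-04). Otud3, 31.9 kb from Pla2g5, was highest in Neu+NETS, at 7.65 FPKM in CTR, 5.27 in Neu and 11.7 in Neu+NETS. In Neu+NETS its log2 change was 0.56 against CTR and 1.05 against Neu (adjusted p = 9.63e-05 and 3.87e-08, edgeR). In Neu it was lower than in CTR (log2 -0.48), where Pla2g5 was higher. Tmco4 and Rnf186, 109.4 and 103.6 kb away, were lower in Neu+NETS than in CTR (log2 -1.13 and -2.31).

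For the genes called in all 3 comparisons, those with the most similar pattern were found by Pearson's r of log2(FPKM + 1) over the 12 libraries, among 8124 or 8125 genes of at least 5 FPKM in a group. Ptgs1 was closest to Lyst (r = 0.994), Ptges to Pld2 (0.991), Pla2g5 to Tnfrsf26 (0.994) and Alox5ap to Cd9 (0.996). The libraries fall into 3 groups, which by itself gives high correlations: 406 genes had r of at least 0.95 with Ptgs1, 355 with Ptges and 420 with Alox5ap, but 81 with Pla2g5. No p is given.

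Neutrophils carry several of these transcripts themselves, so their markers were read in the same libraries. Of 21 markers of mature neutrophils 12 were in the table, and their summed level was 6.28 to 7.82 FPKM in CTR, 15.0 to 15.9 in Neu and 1.03 to 1.52 in Neu+NETS. Of the 8 tested, 3 were higher in Neu than in CTR, 6 were lower in Neu+NETS than in CTR and 7 lower in Neu+NETS than in Neu. The most abundant was Csf3r in CTR, at 5.15 FPKM beside 4.16 in Neu, and Il1r2, an interleukin-1 decoy receptor, in Neu, at 8.03 beside 0.320 in CTR. Without Il1r2 the other 11 summed to 6.07 to 7.46 FPKM in CTR, 7.23 to 7.60 in Neu and 0.961 to 1.52 in Neu+NETS, so the higher sum in Neu came mostly from that gene, and the CTR and Neu ranges of the rest overlapped. S100a8, among the most abundant transcripts of neutrophils, read 0.257 FPKM in CTR, 0.189 in Neu and 0.0547 in Neu+NETS, Elane was at most 0.0969 and Mpo at most 0.00962 as group means. Prtn3, the only neutrophil precursor marker tested, was scarce at 0.0645 FPKM in CTR, 0.399 in Neu and 0.0462 in Neu+NETS. It was 6.26-fold higher in Neu than in CTR and 8.85-fold lower in Neu+NETS than in Neu (adjusted p = 0.0227 and 0.00833, edgeR). Ptgs2, Ptgs1, Ptges, Alox5ap and Pla2g5 were higher in Neu than in CTR, as Il1r2, Lcn2, Mmp9 and Prtn3 were. The other 5 mature markers tested were not called in that comparison. Of these, Csf3r, Hdc and Mmp8 had lower means in Neu, and Cd177 and Cxcr2 had higher means. The neutrophil markers thus did not move together in Neu, and the part of added neutrophils in the levels of these synthesis genes was not tested.

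Platelets and mast cells are other rich sources of these enzymes. Of 11 platelet and megakaryocyte markers 10 were in the table, with sums of 42.8 to 47.6 FPKM in CTR, 54.5 to 62.4 in Neu and 40.9 to 43.8 in Neu+NETS. Nearly all of that was Pf4, at 44.5, 57.6 and 41.8 FPKM, while Ppbp was at 0.115 FPKM or less. Of 14 mast cell, basophil and eosinophil markers only 5 were in the table. These summed to at most 0.193 FPKM in a library, with Cpa3 at 0.0117 or less as a group mean.

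Markers of microglia and macrophages were present as the label says, with 14 of 14 tested. They summed to 1136 to 1196 FPKM in CTR, 1146 to 1187 in Neu and 700.5 to 714.6 in Neu+NETS. In Neu+NETS 14 of 14 were lower than in CTR, the same direction as Ptgs1, Ptges, Alox5ap and Tbxas1 and the opposite of Pla2g5, and their part in those results was not tested. Retinal markers, a list added after the data were seen, were low: 3 of 6 were in the table, and the most abundant was Rbpms, at 1.32 to 1.92 FPKM as group means.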

How the data were processed

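The members and the gene lists were chosen with earlier results of these data known. The table deposited by the authors gives, per the file headers, estimated counts (whole numbers, not scaled between libraries) and FPKM for each gene and library. Tools in the submitters' processing notes are edgeR, StringTie 1.3.4d and HISAT2 2.0.4, and the build is GRCm39, without roles. Annotation release, strand setting and filters: not given in the sources used here. Columns were assigned to libraries through their names, with 0 unmatched.

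From the counts as deposited, filterByExpr kept 16387 of 27487 genes. A quasi-likelihood fit over the 12 libraries with 1 mean per group used TMM scaling, with factors of 0.970 to 1.03 (edgeR 4.0.16, R 4.3.3), and the biological coefficient of variation came to 12.5%. Two-sided tests were run with Benjamini-Hochberg adjustment in each of 3 comparisons, and the fit was tested on simulated data. SE is the log2 fold change over the square root of F. Of counts from 2 to 41, 33.0% were multiples of 4, where an even spread gives 25%, so 4 units were taken as 1 fragment, an assumption, and 12 units as the limit of detection, which covers counting error only. Within a group, every pair of libraries differed in at least 97.53% of genes tested.

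Genes named besides the 10 come from those with, per list and comparison, the 4 smallest adjusted p among called genes, and those printed were picked from them after their values were seen. Fos and Fosl1 stand outside that rule. Added to it were Lta4h, Hpgds, Ptges3, Ptger2, Ptger4, Hpgd, Slco2a1 and the markers given. There are 80 symbols on more than 1 row, which were left out of the lists. Alternatives were DESeq2 size factors in edgeR, DESeq2 1.42.0, limma 3.58.1 on log2(FPKM + 1) and log2(FPKM + 0.1) for genes of at least 1 FPKM in 4 libraries, no filter, counts divided by 4, the 2 groups compared alone, a replicate block and leaving out each library.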

Additional observations from a re-analysis of the deposited data

Results flagged for a closer look

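Pla2g5 in Neu+NETS replicate 4 read 31.0 FPKM, apart from the other 3 libraries of its group, of which the nearest read 34.5. The gap was 0.926 of the range of the group, over Dixon's critical value for 4 samples at the 95% level. Of 24 sets tested, 8 genes in 3 groups, 1 passed that value, and chance passes about 1 in 20. The low library was still above every Neu library of Pla2g5, and the gene was called higher in Neu+NETS with each library left out in turn.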

How the results depend on the processing

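The log2 fold changes kept their direction under the alternatives run, which cover 8 genes but 7 with limma, whose filter drops Tbxas1, and 466 values kept their side of the threshold, while 8 passed it where the reported value did not. The number of genes called higher in Neu+NETS against CTR, 1 as reported, was 2 with limma on log2(FPKM + 1) and 3 with log2(FPKM + 0.1), through Ptges2 (0.14 and 0.15) and Ptgs2 (0.13), and 1 to 2 with each library left out. The cause was not tested. Without Tbxas1, limma gave 3 lower in Neu+NETS against CTR and 4 in Neu+NETS against Neu. On log2(FPKM + 1), whose pseudocount shrinks low genes, Ptges in Neu+NETS against Neu was -1.07 in place of -1.69. The FPKM are not scaled by TMM, and limma covered 11626 genes where edgeR tested 16387. The median over limma's genes differed from that over edgeR's in each comparison. The parts of scaling and of the gene set in this were not separated. With pseudocounts of 1 and 0.1 the differences were -0.10 and -0.12 in Neu against CTR. They were 0.05 and 0.06 in Neu+NETS against CTR, and 0.15 and 0.17 in Neu+NETS against Neu. On its 11626 genes limma with the pseudocount of 1 called 3180 higher and 5045 lower in Neu against CTR. It called 4019 and 2852 in Neu+NETS against CTR, and 5341 and 3581 in Neu+NETS against Neu. On its 16387 genes edgeR called 4284 and 4578, 3535 and 3885, and 4819 and 5422 in the same order of comparisons. Same-numbered libraries had correlations of deviations of -0.05 to 0.04, and 0 of 12 pairs were over 0.1. Libraries of different number had -0.05 to 0.05. No shared effect of the replicate number was seen, but this cannot tell whether same-numbered libraries were set up together, which the labels do not say. With a replicate block Tbxas1 in Neu against CTR was -0.71 (adjusted p = 0.0231, edgeR), which added a lower call, and no other of the 8 genes changed its call. With counts divided by 4 it was -0.66 (adjusted p = 0.0494). Depth limits Alox5 and Ltc4s, at or near 3 fragments, and Tbxas1.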
